A study of Saccharomyces cerevisiae with 4 samples.

Results

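HML, MAT and HMR are the 3 loci on chromosome III that hold the mating-type genes of budding yeast, and accessibility around them was read from ATAC-seq peaks. Their 6 genes were taken from a fixed list of names and located in a RefSeq gene table (assembly R64, which sacCer3 also denotes) of 6431 nuclear genes in all. Each locus was examined from 3 kb left to 3 kb right of its gene pair. The series had 2 libraries of cells lacking SWC4 (swc4Δ) and 2 wild-type (WT) libraries. The labels name the laboratory strain BY4741 for both genotypes, and both were grown at 30 °C to mid-logarithmic phase. Nothing in the labels said that the replicates came from separate cultures, so p-values measure only the spread between these libraries, which may be technical. BY4741 is a haploid strain known to carry the a form of the mating-type locus, with auxotrophic deletions that both genotypes would share.

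In yeast the genes at MAT are expressed and set the mating type, while HML and HMR hold silent copies that serve as donors when cells switch type. Silencing starts at elements that flank each silent cassette, where the origin recognition complex, Rap1 and Abf1 bind and recruit the Sir proteins, which spread over the cassette. The α form encodes α1, an activator of α-specific genes, and α2, a repressor of a-specific genes. The a form encodes a1, which works together with α2 in diploid cells, and a2, for which no role is established. The reference carries the α form at MAT. Reads from sequence found only in the a form of a MATa cell can therefore align only at HMR, and reads from α genes align equally well at HML and MAT. The treatment of reads with several matches is not given in the sources used here.

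HMLALPHA2 (YCL067C, III, 12386 to 13018, minus strand) and HMLALPHA1 (YCL066W, III, 13282 to 13809, plus strand) are transcribed away from each other, across a gap of 263 bp. MATALPHA2 (YCR039C, III, 199546 to 200178, minus strand) and MATALPHA1 (YCR040W, III, 200442 to 200969, plus strand) have the same annotated lengths as the HML pair, 633 and 528 bp, and the same gap of 263 bp. HMRA2 (YCR096C, III, 293179 to 293538, minus strand) spans 360 bp and HMRA1 (YCR097W, III, 293835 to 294321, plus strand) 487 bp, with 296 bp between them.

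Peaks numbered 2826 and 2368 in the swc4Δ libraries and 2354 and 2115 in the WT libraries. The summit pileup of every peak could be read back from its deposited fold as a whole number, against a background of 24.4 and 25.5 in swc4Δ and 22.6 and 24.0 in WT. The units are called fragments here. The caller is not given, so whether a unit is a fragment, a read or a cut site is not known. The weakest peaks had 38 and 40 fragments at the summit in swc4Δ and 37 and 38 in WT, so a locus without a peak may still have had a pileup somewhat above background. SWC4 itself had no peak over the gene in any library, so peaks give no check of its deletion. Chromosome III stood lower in the mutant lists: for the 27 regions of it with a peak in every library, the ratio of the median fold to that of such regions elsewhere was 0.896 and 0.859 in swc4Δ and 1.03 and 1.04 in WT. Peaks covered 9.63% and 7.25% of chromosome III in swc4Δ and 12.1% and 12.0% in WT, but 13.8% and 11.4% of the genome in swc4Δ and 10.7% and 9.30% in WT.

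The strain label was set against genes that mark the mating types. Promoters (500 bp upstream of the gene) of 7 a-specific genes held peaks at 6 and 5 genes in the swc4Δ libraries and at 0 and 0 in the WT libraries. Among all 6002 protein-coding promoters, 55.9% and 44.6% held a peak in swc4Δ and 46.3% and 38.6% in WT. Promoters of 5 α-specific genes held peaks at 2 and 1 genes in swc4Δ and at 4 and 4 in WT. The WT libraries thus lacked peaks at the promoters that are active in MATa cells, which goes against what BY4741 is known to be, while the swc4Δ libraries had them. Whether the strains differed in mating type was not tested, and any such difference cannot be told apart from the loss of SWC4 in the values that follow.

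None of the 6 mating-type genes had a peak. Gene bodies and promoters alike held 0 peaks in each of the 4 libraries, and so did the gap between the genes at HML, at MAT and at HMR. This held for the silent cassettes and for the α genes that the reference carries at MAT. A MATa cell lacks these α genes at MAT, so in such cells the absence does not describe expressed MAT genes. Which form the libraries carried was not tested. Absence of a promoter peak is common among yeast genes: 37.4% of 6002 protein-coding genes had none in any library, 31.1% had a peak in all 4, and 53.8% of gene bodies held none. Because the member genes form divergent pairs, a closer comparison is with the 409 other divergent pairs whose starts lie 200 to 350 bp apart. The gap held a peak in 45.0% and 30.6% of these in swc4Δ and in 35.2% and 24.7% in WT, and in 47.2% no library had a peak there. For the 9 such pairs on chromosome III the shares with a peak were 55.6% and 11.1% in swc4Δ and 55.6% and 44.4% in WT. In 22.2% of these 9 no library had a peak. A gap without a peak in any library is the state of the 3 mating-type pairs, which are not independent of each other, since HML and MAT share sequence. The treatment of reads with several matches is not given. In shared sequence the absence of peaks therefore cannot be told apart from reads having been left out, which also limits the comparison with other pairs.

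Within 3 kb, a peak was found at 1 place in each swc4Δ library, and at 2 places in WT replicate 1 and 1 place in WT replicate 2. The means were 1 ± 0 peaks in swc4Δ and 1.5 ± 0.707 in WT (SD, n = 2 each; exact permutation p = 1, two-sided). The smallest p that 2 against 2 libraries allow is 0.333, so no comparison between genotypes here could pass 0.05. Peaks covered 2.19% and 1.92% of the 3 windows in swc4Δ and 2.51% and 1.95% in WT (exact permutation p = 0.667, two-sided). The groups overlapped, and every library was below its own genome-wide coverage. No merged region in the windows was gained (present in each swc4Δ list, absent from each WT list) and none was lost (the reverse). Over the genome 14% of the 2181 regions that had a peak in both replicates of either genotype were gained and 4.22% lost. The windows held 1 such region, at the tRNA gene beside HMR, so these counts of 0 are not a result about the loci.

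**Figure D1:**
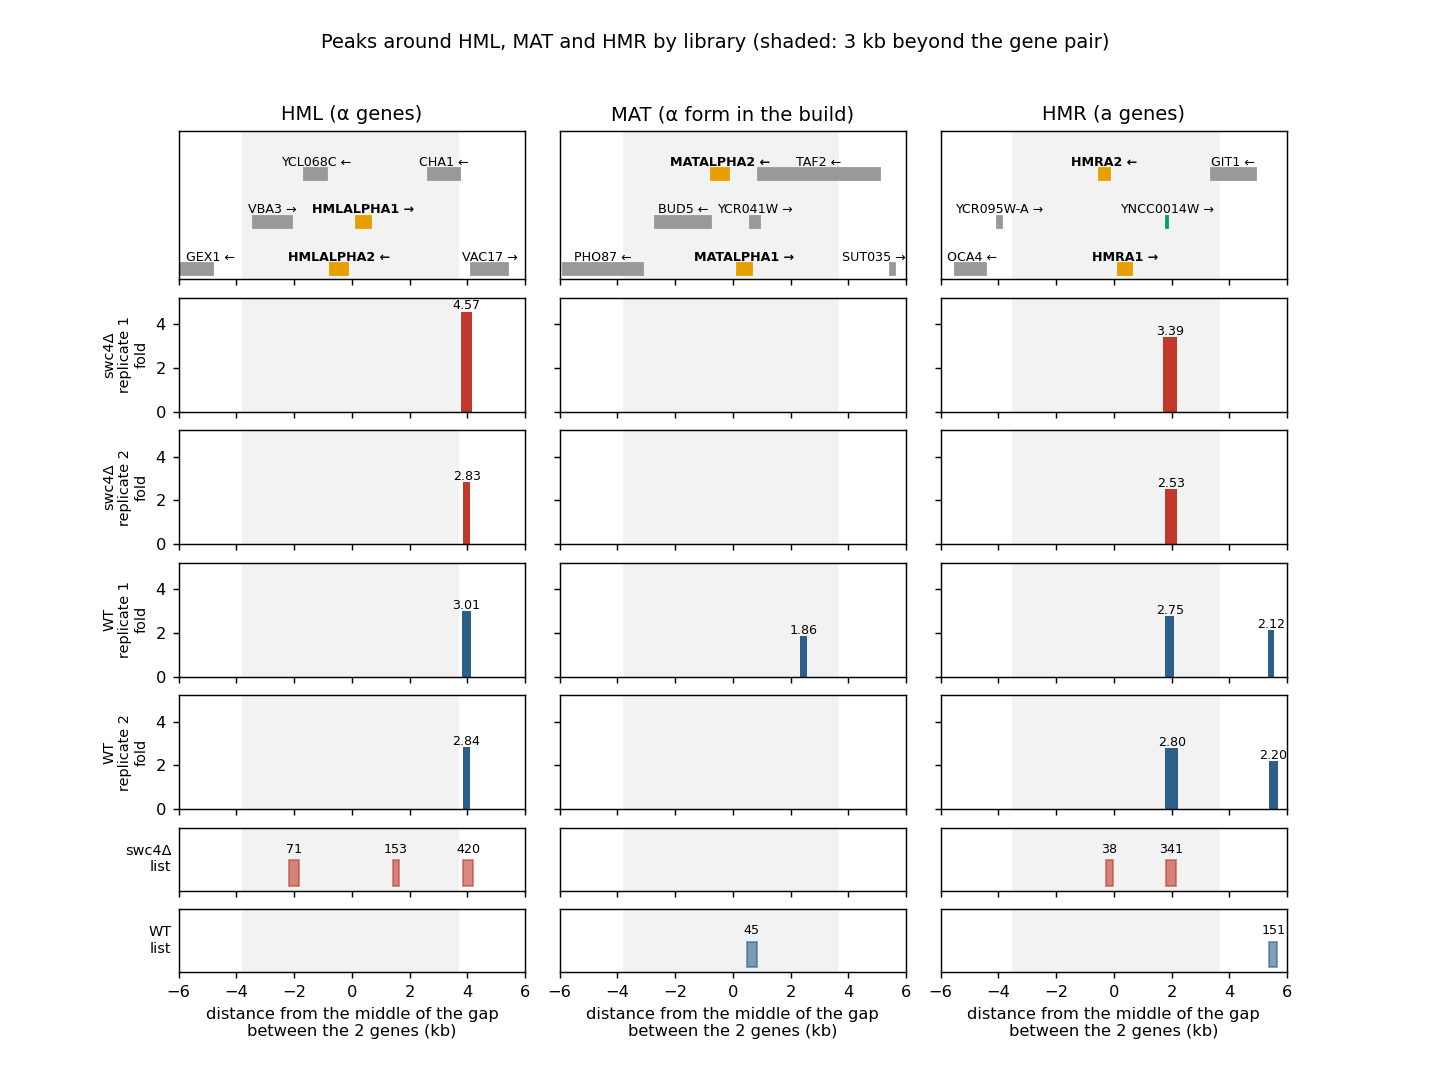
Genes and peaks around HML, MAT and HMR. The x axis is the distance in kb from the middle of the gap between the 2 genes, and grey shading covers the gene pair with 3 kb on each side. The top row shows annotated genes (mating-type genes in orange, the tRNA gene in green). The next 4 rows show each library's peaks as bars with their fold over background as height, and the lowest 2 rows the authors' genotype lists with each region's score. No library had a peak over an orange gene, and all 4 had 1 over the tRNA gene beside HMR.

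HML had no peak in its window in any library. Absence of peaks within 3 kb of a gene in all 4 libraries, as at HMLALPHA1 and HMLALPHA2, was the state of 8.15% of protein-coding genes. The nearest peak lay just beyond the window, 3133 and 3206 bp right of HMLALPHA1 in swc4Δ and 3157 and 3180 bp in WT. It sat between CHA1, a serine and threonine deaminase gene induced by those amino acids, and VAC17, which encodes an adaptor for vacuole inheritance. Its fold was 4.57 and 2.83 in swc4Δ, at 115 and 74 fragments, and 3.01 and 2.84 in WT, at 70 and 70 fragments. The genotypes overlapped in fold, and swc4Δ replicate 1 stood above the other libraries. The summits agreed closely, at 17139 and 17133 in swc4Δ and at 17133 and 17139 in WT.

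To the left of HML the nearest peak lay close to the chromosome end. The peak-free interval around the HML pair measured 15.8 and 15.8 kb in swc4Δ and 16.0 and 16.1 kb in WT, against median intervals between peaks of 2.29 and 2.56 kb in swc4Δ and 2.61 and 2.75 kb in WT. It ended on the left at a peak whose last base was 1183 and 1200 in swc4Δ and 940 and 908 in WT. Intervals at least as long made up 2.17% and 5.02% of all intervals in swc4Δ and 4.62% and 6.43% in WT. Any given gene is more likely to lie in a long interval than in a short interval. GEX1 (a glutathione exchanger gene) and VBA3 (a vacuolar basic amino acid permease gene) lie in this interval and had no peak over the gene or in the promoter in any library. The interval includes cassette sequence shared with MAT, and whether its other sequence is repeated elsewhere was not examined. In any repeated part the absence of peaks cannot be told apart from reads having been left out. The same limit applies to the intervals around MAT and HMR.

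MAT had no peak in 3 of the 4 libraries within 3 kb. WT replicate 1 had a weak peak inside TAF2, a gene for a TFIID subunit, at III, 202623 to 202873, 1653 bp right of MATALPHA1. Its fold was 1.86, at 43 fragments, which placed it at percentile 8.84 of that list. Neither swc4Δ library nor WT replicate 2 had a peak there. BUD5, a gene for a guanine nucleotide exchange factor of bud-site selection whose start overlaps the end of MATALPHA2, had no peak over the gene or in the promoter in any library, nor did PHO87, a phosphate transporter gene, or YCR041W, an open reading frame that overlaps the ends of MATALPHA1 and TAF2.

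The interval without peaks around MAT was long in every library. It measured 16.9 and 30.3 kb in swc4Δ and 23.2 and 30.7 kb in WT. Intervals at least as long made up 1.60% and 0.425% of all intervals in swc4Δ and 1.33% and 0.810% in WT, but a given gene is more likely to lie in a long interval than in a short interval. On the right the first peak in swc4Δ replicate 1 and WT replicate 2 was at IMG1, a mitochondrial ribosomal protein gene, and in swc4Δ replicate 2 over RRT12. On the left the last peak was in the promoters of RRP43 and RBK1, an exosome subunit and a ribokinase gene, in swc4Δ replicate 1, and near SNR189, a small nucleolar RNA gene, in the other 3 libraries. The left flank was therefore free of peaks for 6.26 and 20.9 kb in swc4Δ and for 20.1 and 20.2 kb in WT.

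Measured from the gene start to the nearest summit, MATALPHA1 was 7269 and 8590 bp away in swc4Δ and 2247 and 9954 bp in WT. In swc4Δ 2.80% and 4.88% of protein-coding genes, and in WT 33.4% and 4.68%, were at least as far. WT replicate 1 differed from the rest because of the TAF2 peak. HMLALPHA1 was 3857 and 3851 bp from a summit in swc4Δ and 3851 and 3857 bp in WT, which 12.5% and 20.5% of genes reached or exceeded in swc4Δ and 19.8% and 25.4% in WT. HMRA1 was nearest, at 1750 and 1738 bp in swc4Δ and 1760 and 1765 bp in WT, with 30.4% and 40.7% of genes as far in swc4Δ and 39.0% and 45.5% in WT. The 4 lists differed in length, and the median distance over all genes was 582 and 1039 bp in swc4Δ and 959 and 1402 bp in WT. The percentages move with that median.

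**Figure D2:**
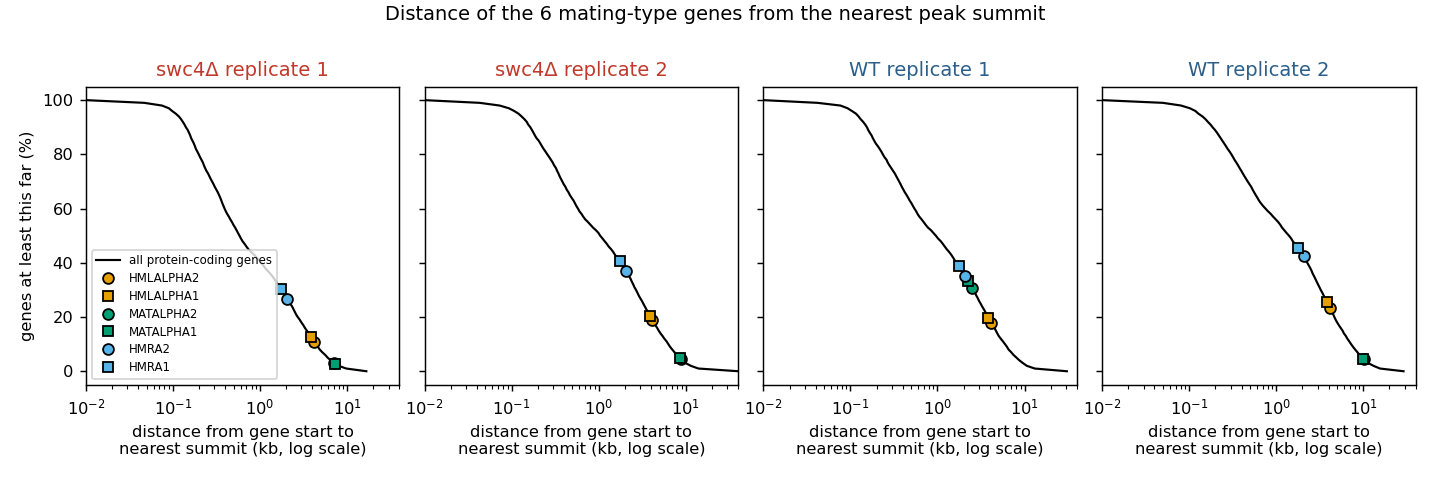
Distance from each mating-type gene's start to the nearest peak summit (x axis, kb, log scale) and the percentage of protein-coding genes at least as far (y axis), for each library. The black line is all 6002 protein-coding genes, and the coloured points lie on it by construction. All 6 genes lay beyond the median gene in all 4 libraries, with the HMR genes nearest to a peak in every library and the MAT genes farthest in every library except WT replicate 1.

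HMR had a single peak within 3 kb, and it was present in all 4 libraries. It covered the tRNA gene YNCC0014W (III, 295484 to 295556), which begins 1162 bp right of HMRA1. A tRNA gene at this side of HMR is known as a barrier that keeps silent chromatin from spreading towards GIT1, a glycerophosphoinositol permease gene. The peak spanned 295407 to 295887 and 295466 to 295888 in swc4Δ and 295474 to 295774 and 295476 to 295904 in WT. Its left edge lay at 1085 and 1144 bp from HMRA1 in swc4Δ and at 1152 and 1154 bp in WT.

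The fold of the barrier peak was 3.39 and 2.53 in swc4Δ and 2.75 and 2.80 in WT. The pileup at its summit was 85 and 66 fragments in swc4Δ and 64 and 69 in WT. The genotypes overlapped, and the highest value came from swc4Δ replicate 1, the longest list. Within its own list the peak stood at percentile 68.2 and 57.3 of fold in swc4Δ and 61.7 and 71.8 in WT, with means of 62.8 ± 7.72 in swc4Δ and 66.7 ± 7.14 in WT (SD, n = 2 each; exact permutation p = 0.667, two-sided). Among tRNA genes with a peak it ranked in the middle: its percentile was 66.0 and 49.7 among 241 and 191 tRNA genes in swc4Δ and 59.3 and 73.1 among 182 and 134 in WT. It was the 15th of 49 and 14th of 41 peaks by fold on chromosome III in swc4Δ and the 20th of 59 and 14th of 60 in WT.

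The summit of the barrier peak lay beyond the 73 bp gene in each library, 29 and 17 bp past its end in swc4Δ and 39 and 44 bp in WT. Counted from the gene start, the summit was at 101 and 89 bp in swc4Δ and at 111 and 116 bp in WT, so both swc4Δ libraries were on the HMR side of both WT libraries (difference −18.5 bp, exact permutation p = 0.333, two-sided). A summit farther upstream in both swc4Δ libraries was seen at 15% of the 113 tRNA genes with a peak in all 4 libraries, and the reverse at 11.5%. The edge facing HMR lay at −77 and −18 bp in swc4Δ and at −10 and −8 bp in WT, again without overlap (difference −38.5 bp, exact permutation p = 0.333, two-sided). Of the same tRNA genes 36.3% had an upstream edge farther out in both swc4Δ libraries and 6.19% the reverse, and the edge at HMR is to be read against that share. The opposite edge overlapped between genotypes, at 403 and 404 bp in swc4Δ and 290 and 420 bp in WT.

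**Figure D3:**
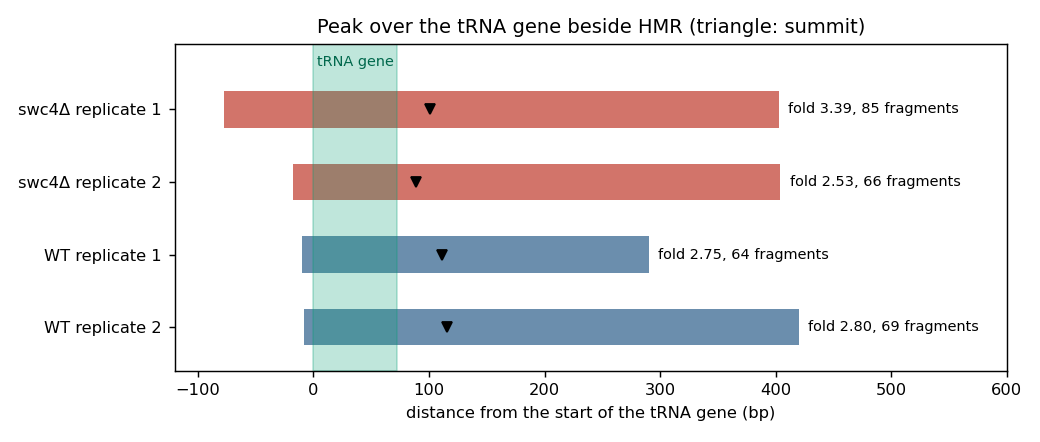
Extent of the peak over the tRNA gene beside HMR in each library, in bp from the start of the tRNA gene (x axis). Bars run from the peak's left to right edge, the triangle marks the summit, the green band is the gene, and HMR lies to the left. The left edges in swc4Δ, −77 and −18 bp, lie left of those in WT, −10 and −8 bp.

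Left of HMRA2 the chromosome held no peak for 13.1 and 21.3 kb in swc4Δ and for 13.0 and 21.3 kb in WT. The genotypes overlapped in this distance. In swc4Δ replicate 1 and WT replicate 1 the nearest peak was between MSH3, a mismatch repair gene, and CDC39, a CCR4-NOT scaffold gene, and in swc4Δ replicate 2 and WT replicate 2 it was over FIG2, a cell wall adhesin gene induced in mating. The whole interval around the HMR pair measured 15.3 and 23.6 kb in swc4Δ and 15.3 and 23.6 kb in WT. OCA4, a gene of the oxidant-induced cell-cycle arrest family, and YCR095W-A lie inside it and had no peak over the gene or in the promoter.

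Beyond the barrier, the GIT1 promoter had no peak in either swc4Δ library and a peak in both WT libraries. It lay outside the window, 4705 and 4731 bp right of HMRA1, with folds of 2.12 and 2.20 at 49 and 54 fragments in the WT libraries. These folds were at percentiles 27.6 and 42.4 of the WT lists, and the region (III, 299027 to 299370) was the single lost region within 5 kb of the 3 gene pairs. Over the genome 4.22% of regions with a peak in both replicates of either genotype were lost. The −log10 q was 4.94 in WT replicate 1 and 5.79 in WT replicate 2. At a −log10 q of at least 5 the region was therefore not called lost. The authors' WT genotype list held a region there with a score of 151, at percentile 13.2 of that list, and their swc4Δ list held none. These lists belong to the same series, so they are no separate support. The lower level of chromosome III as a whole in swc4Δ stands beside this loss, and its part in it was not tested.

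The authors also deposited 1 list per genotype, with 2602 regions for swc4Δ and 1002 for WT, each with a score. The sources used here do not give their caller or any pooling of replicates, so the lists have no replicates and no test. These lists held regions at the loci where no library had a peak. In the swc4Δ list 2 such regions flanked the HML pair: III, 10971 to 11300, which is 1085 bp left of HMLALPHA2 and over VBA3, with a score of 71, and III, 14571 to 14780, which is 761 bp right of HMLALPHA1 and over no annotated gene, with a score of 153. The silencers of HML are known to lie on either side of the gene pair, but the gene table used here does not annotate them. The WT list had no region at HML.

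At HMR the swc4Δ list held a region at III, 293401 to 293670, with a score of 38. It covered 132 bp of the gap between the a genes, or 44.6% of it, and 138 bp of HMRA2 at its start. The WT list had none at the HMR genes. At MAT the order was the opposite: the swc4Δ list had no region, and the WT list had III, 200801 to 201130, with a score of 45, which covered 169 bp at the end of MATALPHA1, or 32.0% of it, and continued into YCR041W. Both scores were near the minimum of 30, at percentile 1.19 of the swc4Δ list and 1.90 of the WT list, and those at HML at percentiles 4.38 and 16.8 of the swc4Δ list. Regions with no library peak of their own genotype made up 14.7% of the swc4Δ list and 8.18% of the WT list. The loci share sequence, and the placing of reads with several matches is not given. The locus of a region over the mating-type genes is therefore uncertain.

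The barrier tRNA gene had a score of 341 in the swc4Δ list and no region in the WT list, although both WT libraries had a peak there. Likewise the place between CHA1 and VAC17 scored 420 in the swc4Δ list and was missing from the WT list. A region found in the swc4Δ list alone at these loci does not show that the WT libraries lacked a peak.

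The genes controlled by the products of MAT were described from lists of names, chosen with earlier results of these data known. Among the 7 a-specific genes, which α2 represses in α cells, 5 promoters were gained and 0 lost, while 5.23% of all 6002 protein-coding promoters were gained. STE2, the α-factor receptor gene on chromosome VI, had promoter folds of 4.18 and 2.76 in swc4Δ and no peak in WT. BAR1, encoding the protease that degrades α-factor, had 4.10 and 3.32 in swc4Δ, and MFA2, an a-factor gene, had 3.78 and 2.83 in swc4Δ, with no peak in WT at either. MFA1, the other a-factor gene, had 3.35 and 2.42 in swc4Δ, and STE6, the a-factor exporter gene, had 3.78 and 2.57 in swc4Δ, with no peak in WT at either. MFA1 and STE6 lie on chromosomes IV and XI, and the STE6 promoter overlaps the tRNA gene TRT2. At MFA2 the merged region also held a peak of WT replicate 1 that stopped short of the promoter. AGA2, encoding an a-agglutinin subunit, had a peak in swc4Δ replicate 1 alone, with a fold of 2.84, and ASG7 had none in any library.

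Of the 5 α-specific genes, which α1 activates, 2 promoters were lost and 0 gained, while 1.05% of all promoters were lost. SAG1, the α-agglutinin gene, had no peak in swc4Δ and folds of 2.71 and 2.40 in WT, and MF(ALPHA)1, the main α-factor gene, had no peak in swc4Δ and folds of 2.63 and 2.56 in WT. MF(ALPHA)2 had a fold of 2.88 in swc4Δ replicate 1, no peak in swc4Δ replicate 2, and folds of 3.64 and 3.16 in WT. STE3, the a-factor receptor gene, had 2.33 and 1.77 in swc4Δ and 2.97 and 1.92 in WT, with overlap between the genotypes, and AFB1 had no peak in any library. The libraries are of bulk cells, in which fewer cells with an open site and a less open site in every cell cannot be told apart.

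**Figure D4:**
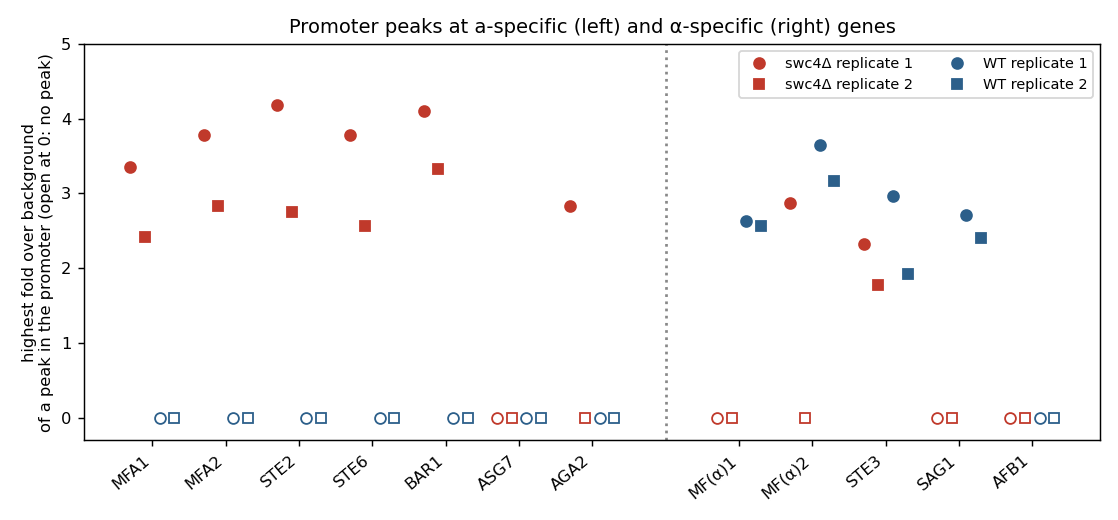
Highest fold over background of a peak in the promoter (y axis) of 7 a-specific and 5 α-specific genes (x axis), for each library. Open symbols at 0 mean that the list held no peak there, not a measured fold of 0. The a-specific promoters had peaks in swc4Δ libraries alone, with folds from 2.42 to 4.18, and MF(ALPHA)1 and SAG1 in WT libraries alone.

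Haploid-specific genes, which are repressed by a1 with α2 in diploids and expressed in both haploid types, had 0 gained and 0 lost promoters among 11, which at shares of 5.23% gained and 1.05% lost over all promoters is not a result about these genes. A peak in all 4 libraries was found at 5 of them: GPA1, STE4 and STE18 (the subunits of the pheromone-coupled G protein), RME1 (a repressor of meiosis) and FUS3 (a mating kinase). HO, the endonuclease gene that starts switching at MAT, had no promoter peak in any library.

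Among 9 genes for silencing factors and the regulators that bind silencers or mating-type promoters, 2 promoters were gained and 0 lost, against 5.23% gained and 1.05% lost over all promoters. The count changed with the setting: 4 were called without WT replicate 1, 3 at −log10 q of at least 5 and 3 with equal numbers of peaks. It was 1 at 50% overlap, with summits or with promoters of 300 bp. SIR1, which encodes a protein that helps to establish silencing at HML and HMR, had folds of 2.88 and 2.68 in swc4Δ and no peak in WT, and SUM1, a repressor gene, had 2.40 and 2.72 in swc4Δ and no peak in WT. SIR1 lies on chromosome XI and SUM1 on chromosome IV. SIR2, the silencing deacetylase gene, also on IV, had 4.22 and 3.66 in swc4Δ, 1.78 in WT replicate 1 and no peak in WT replicate 2. SIR4 and ORC1 had no promoter peak in any library, nor did SIR3, for which the swc4Δ genotype list alone held a region. ABF1 and MCM1 had a peak in all 4 libraries, and RAP1 in all except WT replicate 2.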

How the data were processed

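The deposited lists are on sacCer3. Per the submitters' processing notes, the tools were Bowtie2 2.3.1, Trim Galore 0.5.0, SAMtools 1.4, Picard 2.18.7 and deepTools 1.5.11, with neither their order nor their roles given. Which program called peaks, with which settings, and whether reads were shifted for the Tn5 insertion offset is not given in the sources used here. The authors deposited 1 peak list per library, with a fold (ratio over background), −log10 p-value and −log10 q-value per peak, a whole-number score (the −log10 q scaled by the authors) and a summit position. They also deposited 1 list per genotype with a score per region. Their genotype came from the code in their names. Coordinates are sacCer3, counted from the first base.

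All folds lay on an evenly spaced ladder (100% of peaks within 0.01 of a whole step). Its step gave the background pileup and the pileup at each summit, in units called fragments here. This depth covers counting error only. Peaks sharing at least 1 bp with a window, gene or promoter (500 bp) were counted, and peaks of the 4 libraries were merged where they shared 1 bp. Genotypes were compared by exact permutation of libraries. Folds and scores served only as descriptions and ranks inside their own list. Python 3.11.15, pandas 2.3.3 and scipy 1.17.1 were used, and merging, calls and the ladder were tested on simulated data. The members and gene lists were chosen with earlier results of these data known. Named were the 6 members, all peaks and regions in the windows with their genes, the flanking peaks, and list members with a gained or lost promoter or an a-specific or α-specific role. Other list members and the flanking peaks were named after their values were seen. A planned comparison of fold percentiles between α and a gene pairs had no peaks to use.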

Additional observations from a re-analysis of the deposited data

How the results depend on the processing

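Of 102 recomputed values, 84 stayed within the spread between replicates (counts, within 1.5 times), 15 moved and 3 reversed. Under every alternative the member genes and promoters had 0 peaks. The settings mostly drop, trim or re-count peaks and could hardly add any there, so these unchanged values are no check. The windows had 0 gained regions under every alternative, and the a-specific gains stayed at 5 or 6. The difference in covered windows (swc4Δ minus WT, −0.175 points) reversed to 0.396 points at −log10 q of at least 5 and with equal numbers of peaks, both of which drop the TAF2 peak. It ran from −0.455 to 0.105 points when each library was left out, the reversal being without WT replicate 1, the library with that peak. With windows of 5 kb the difference was −0.746 points in coverage and −1.5 in peaks, with 1 lost region (GIT1), since the wider windows reach that peak. Lost regions were 0 to 1 when each library was left out, with 1 without WT replicate 2. Haploid-specific promoters called gained or lost were 1 at the stricter threshold and 1 at 50% overlap, and 0 to 1 when each library was left out (1 without swc4Δ replicate 2 and 1 without WT replicate 1). Silencing-factor promoters called were 3 at the stricter threshold, 3 with equal numbers of peaks, 1 at 50% overlap, 1 with summits and 1 with promoters of 300 bp. They were 2 to 4 when each library was left out, with 4 without WT replicate 1. The cause of these shifts in promoter counts was not tested. Replicate numbers were shared by the genotypes, but the labels tie them to nothing, and deviations of same-numbered libraries correlated at 0.0430 over 1328 regions. With the replicate block, a call in either number counts. Under it 1 region was lost, and 2 haploid-specific and 4 silencing-factor promoters were called. Further, 6 a-specific promoters were gained and 3 α-specific ones lost. The difference in coverage was −0.175 points. By arithmetic it must equal the main value, as must the difference in peaks, so their staying the same is no check. The weakest peaks of 37 to 40 fragments set the depth limit: a smaller pileup at these loci was not detectable.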
